A study of Saccharomyces cerevisiae with 24 samples.

Results

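Aminoacyl-tRNA synthetases attach each amino acid to its tRNA, and their genes were followed here in the CEN.PK strain of the yeast Saccharomyces cerevisiae as cells left rich medium for minimal medium. The set was chosen by gene symbol and holds 32 of the 7126 genes in the deposited table. Of these, 19 act in the cytosol, counting the tRNA-binding cofactor gene ARC1, and 13 act in mitochondria (MSD1, MSE1, MSF1, MSK1, MSM1, MSR1, MST1, MSW1, MSY1, ISM1, NAM2, SLM5 and DIA4). RNA was sequenced from WT, rph1Δ, set2Δ and H3K36A cells. Cells in log phase in rich YPL medium (0 h) were washed once and cultured in minimal SL medium for 1 h or 3 h. Rph1 is a demethylase of lysine 36 of histone H3, Set2 is the methyltransferase of that residue, and H3K36A cells are labelled as having alanine in its place in HHT1 and HHT2, which encode histone H3. Each of the 12 groups held 2 libraries. The labels do not say whether replicates were separate cultures, so p-values measure only the spread between these samples, and bulk RNA cannot tell fewer cells from less RNA per cell.

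Yeast builds proteins with separate sets of tRNAs and mostly separate synthetases in the cytosol and in mitochondria, and all mitochondrial synthetases are encoded in the nucleus. ALA1, GRS1, HTS1 and VAS1 serve both compartments from a single gene and are counted here with the cytosolic enzymes. Cytosolic translation genes are known to fall in transcript level when yeast lose nutrients, and the transcription factor Gcn4 is known to raise many amino acid biosynthesis genes and some synthetase genes under amino acid shortage.

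Total counts per library ranged from 6623458 to 7677684. The edited genes checked the labels. Summed over the 6 libraries of a genotype, RPH1 counts came to 8 in rph1Δ and 3336 in WT, and SET2 counts to 0 in set2Δ and 1641 in WT. HHT1 and HHT2 held 5 and 2 counts in H3K36A against 16771 and 23721 in WT. Both rows were thus nearly empty in the libraries labelled H3K36A, which is more than the labelled change of 1 residue describes, and how the mutant H3 gene was carried or counted was not tested. The rph1Δ libraries also stood apart in mating type markers. The 7 a-specific genes summed to 203 to 647 counts per rph1Δ library against 1494 to 3700 in WT, and the 4 α-specific genes to 1857 to 30149 against 178 to 562, so rph1Δ and mating type cannot be told apart.

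KRS1, the cytosolic lysyl-tRNA synthetase gene (YDR037W, chrIV:525440-527215), held 24 counts over all 24 libraries, between 0 and 4 in each. It did not reach an FPKM of 1 in 2 libraries, the minimum for testing, so 31 members were tested, 18 cytosolic and 13 mitochondrial. Levels below are CPM (counts scaled to TMM-adjusted library size) per kilobase of exon, which can be compared between genes. Changes are log2 fold changes ± SE from the edgeR quasi-likelihood test, with p-values adjusted by the Benjamini-Hochberg method over all 6503 genes tested. The words rose, fell, higher and lower are used of genes with an adjusted p under 0.05, relative to the TMM-scaled libraries.

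The windows from 250 bases before to 50 bases after the start codon were searched for 5 motifs. AAAATTTT, the core of the RRPE element found before many ribosome biogenesis genes, lay in 11 of 19 cytosolic windows (57.89%), in 0 of 13 mitochondrial windows and in 9.03% of 5979 windows of all genes. GATGAG, the core of the PAC element, lay in 5 cytosolic windows and 1 mitochondrial window, and in 20.39% of all windows. TGACTCA, the Gcn4 motif, lay in 1 cytosolic window (GLN4, inside the coding sequence), in 0 mitochondrial windows and in 2.74% of all. CCAAT lay in 8 cytosolic and 3 mitochondrial windows and in 43.28% of all, and CGGGTAA, the Reb1 motif, in 3 and 0 and in 7.11% of all. Both strands were searched, a match is a run of letters and not a tested site, and AAAATTTT reads the same on both strands. Below are the windows of 5 members with large changes in WT, which are not all of the extreme members. MSK1 and MES1, with large falls, and GUS1 and DPS1, with small ones, lack AAAATTTT and are not shown. The windows are read 5′ to 3′ on the gene's strand from the RefSeq R64 genome (sacCer3), with motif matches in capitals. SES1 lies on the plus strand (chrIV:489258-489557), THS1 on the plus strand (chrIX:212249-212548), GRS1 on the minus strand (chrII:483318-483617), MSY1 on the plus strand (chrXVI:364702-365001) and NAM2 on the minus strand (chrXII:884702-885001).
SES1: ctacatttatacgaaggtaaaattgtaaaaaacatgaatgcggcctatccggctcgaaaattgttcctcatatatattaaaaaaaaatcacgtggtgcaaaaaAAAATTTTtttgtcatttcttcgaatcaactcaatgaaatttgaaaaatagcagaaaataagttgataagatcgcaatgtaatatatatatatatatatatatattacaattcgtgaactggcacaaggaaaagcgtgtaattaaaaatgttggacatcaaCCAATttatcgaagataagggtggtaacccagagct
THS1: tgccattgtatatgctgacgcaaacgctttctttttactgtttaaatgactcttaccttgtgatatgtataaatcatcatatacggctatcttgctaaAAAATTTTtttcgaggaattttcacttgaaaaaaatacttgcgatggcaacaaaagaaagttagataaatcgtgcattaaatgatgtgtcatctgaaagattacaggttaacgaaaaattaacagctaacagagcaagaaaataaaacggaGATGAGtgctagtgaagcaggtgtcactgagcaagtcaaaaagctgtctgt
GRS1: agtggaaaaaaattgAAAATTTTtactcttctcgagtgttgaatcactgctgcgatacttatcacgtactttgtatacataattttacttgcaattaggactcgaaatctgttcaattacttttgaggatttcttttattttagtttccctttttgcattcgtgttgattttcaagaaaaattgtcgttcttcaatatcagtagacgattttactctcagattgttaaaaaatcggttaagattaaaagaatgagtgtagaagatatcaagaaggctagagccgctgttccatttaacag
MSY1: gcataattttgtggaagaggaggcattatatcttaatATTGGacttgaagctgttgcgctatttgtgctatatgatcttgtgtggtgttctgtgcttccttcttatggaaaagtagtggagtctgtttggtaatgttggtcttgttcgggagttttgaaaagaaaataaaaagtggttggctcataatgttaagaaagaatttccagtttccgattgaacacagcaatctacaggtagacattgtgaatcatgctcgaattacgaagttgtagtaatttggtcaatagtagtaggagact
NAM2: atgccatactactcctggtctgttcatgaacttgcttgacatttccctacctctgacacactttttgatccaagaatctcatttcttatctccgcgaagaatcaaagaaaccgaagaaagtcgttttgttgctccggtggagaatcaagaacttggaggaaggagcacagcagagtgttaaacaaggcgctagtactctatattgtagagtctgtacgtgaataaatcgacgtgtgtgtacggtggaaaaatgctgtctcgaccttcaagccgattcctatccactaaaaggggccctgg
The AAAATTTT run starts 147 bases before the start codon of SES1, 152 before that of THS1 and 235 before that of GRS1. The GATGAG of THS1 spans its start codon, the CCAAT of SES1 is inside its coding sequence, and the MSY1 match is CCAAT on the other strand. NAM2 holds none of the 5 motifs.

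In WT cells every tested member fell within 1 h of the move to minimal medium. All 18 tested cytosolic members fell, with a median change of -1.77, and all 13 mitochondrial members fell, with a median of -2.22. Over all genes tested 34.8% fell and 37.3% rose, with a median of 0.06. Before the move, mean levels ran from 93.5 (CDC60, leucyl) to 493 (SES1, seryl) in the cytosolic set and from 54.8 (ISM1, isoleucyl) to 222 (MSY1, tyrosyl) in the mitochondrial set. At 1 h they ran from 27.1 (MES1, methionyl) to 172 (ARC1) and from 8.99 (ISM1) to 31.5 (MSR1, arginyl).

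The cytosolic SES1 was at 507 and 478 in WT at 0 h and at 82.0 and 75.5 at 1 h. It had the highest level of the set before the move and fell by 2.64 ± 0.08 (adjusted p = 4.433e-20). The glycyl-tRNA synthetase gene GRS1, which overlaps YBR121C-A on the same strand, followed at -2.53 ± 0.07 (adjusted p = 2.734e-21). At the other end, GUS1, the cytosolic glutamyl-tRNA synthetase gene, went from 224 and 218 to 121 and 113. The libraries of the 2 times did not overlap for GUS1 either, and its change of -0.92 ± 0.07 (adjusted p = 1.243e-11) was close to the -0.93 ± 0.07 of DPS1 (aspartyl, adjusted p = 1.105e-12).

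In the mitochondrial set MSY1 changed most, from 221 and 222 at 0 h to 28.3 and 24.4 at 1 h. That 8.38-fold fall (-3.07 ± 0.10, adjusted p = 3.383e-20) began from the highest mitochondrial level at 0 h and ended below that of MSR1. MSK1 (lysyl) fell by 2.88 ± 0.12 (adjusted p = 1.025e-17). MSR1 had the smallest change, from 101 and 103 to 30.4 and 32.5, a fall of 1.70 ± 0.10 (adjusted p = 1.89e-14), and MSM1 (methionyl) was next at -1.81 ± 0.10 (adjusted p = 8.817e-15). The fall of MSR1 was larger than those of GUS1 and DPS1, a difference that was not tested. Counted as shares of all reads, the tested cytosolic members took 0.809% and 0.8124% of WT counts at 0 h and 0.2507% and 0.2465% at 1 h, and the mitochondrial members 0.2191% and 0.2238%, then 0.0474% and 0.0482%.

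**Figure D1:**
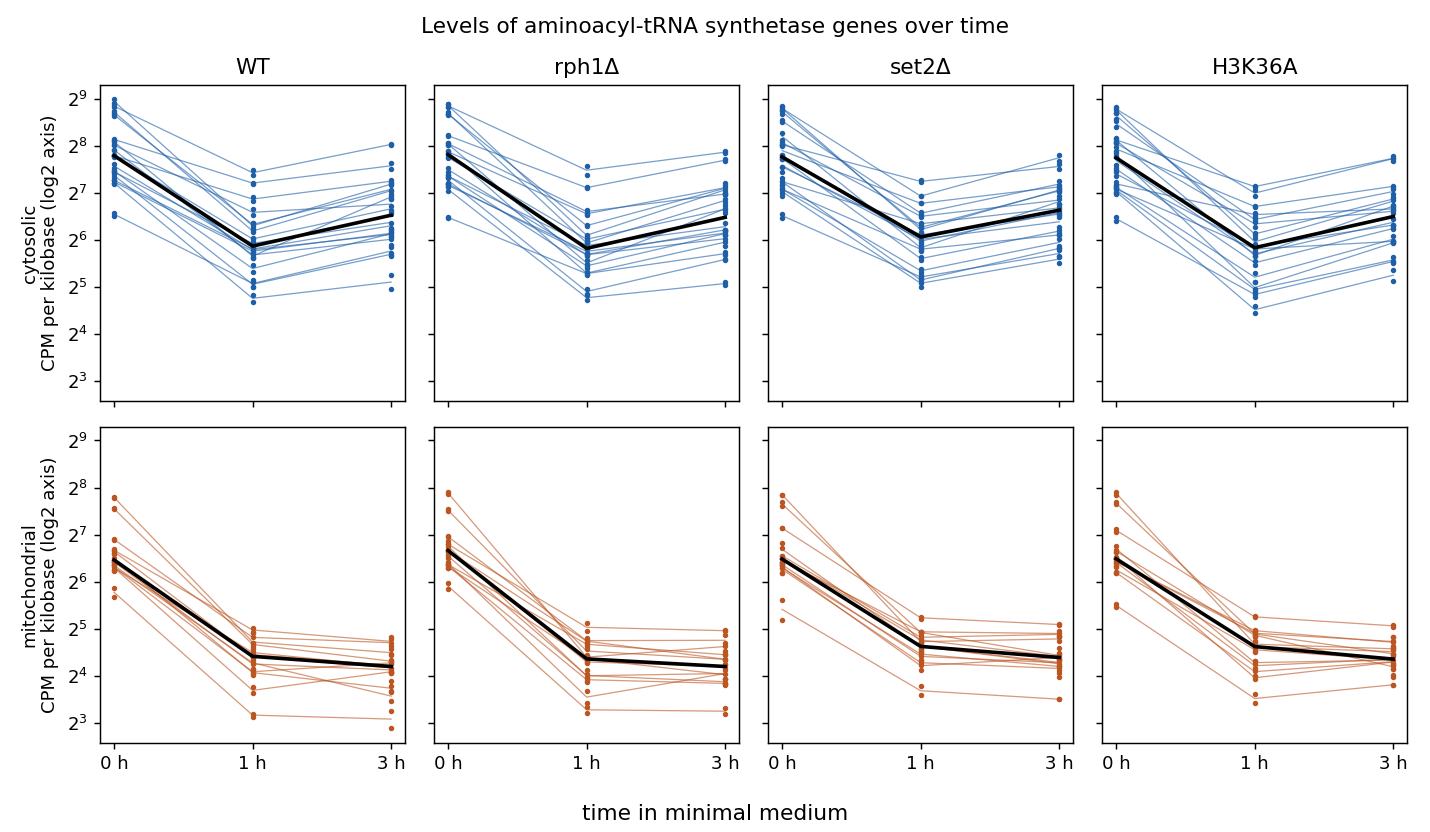
Levels of the 31 tested members (CPM per kilobase, log2 axis) at 0 h, 1 h and 3 h in each genotype, with cytosolic genes above and mitochondrial genes below; dots are single libraries, thin lines join group means and the black line is the median gene. Both sets drop from 0 h to 1 h in every genotype, and between 1 h and 3 h the cytosolic median climbs (58.5 to 92.1 in WT) while the mitochondrial median does not (21.3 to 18.4 in WT).

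Between 1 h and 3 h the compartments parted. In WT, 17 of 18 cytosolic members rose, against 27.4% of all genes, with a median of 0.55. In the mitochondrial set 1 of 13 rose and 3 fell, where 18.7% of all genes fell, with a median of -0.23. With libraries scaled by their totals in place of TMM, the median of all genes moved from 0.03 to -0.24, and the split became 10 higher and 0 lower for the cytosolic set and 0 higher and 11 lower for the mitochondrial set. Set against the median of all genes, 18 of 18 cytosolic members lay above it and 11 of 13 mitochondrial members below it. These counts were the same with library totals. A change of scaling moves all genes of a comparison, and so their median, by nearly the same amount. The sameness of these counts is therefore no test of whether the split depends on the scaling.

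THS1, the cytosolic threonyl-tRNA synthetase gene, was at 49.0 and 52.0 at 1 h and at 125 and 116 at 3 h. This 2.39-fold rise (1.26 ± 0.08, adjusted p = 9.647e-13) left THS1 under its levels of 274 and 269 at 0 h. SES1 rose by 0.88 ± 0.08 (adjusted p = 1.558e-09). The 2 smallest called rises were those of FRS1, a subunit gene of the cytosolic phenylalanyl-tRNA synthetase (0.33 ± 0.09, adjusted p = 0.003196), and HTS1 (histidyl, 0.32 ± 0.10, adjusted p = 0.01215). TYS1 (cytosolic tyrosyl), at 100 and 91.8 and then at 118 and 99.4, did not pass the test (0.17), and its libraries of the 2 times overlapped. Without replicate 1 of WT at 3 h the FRS1 change was 0.21 and the HTS1 change 0.27, and neither was called.

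NAM2, the mitochondrial leucyl-tRNA synthetase gene whose protein is also known to take part in splicing of mitochondrial introns, was at 19.8 and 19 at 1 h and at 12.6 and 11.1 at 3 h. It fell by 0.71 ± 0.12 (adjusted p = 2.024e-05), the libraries being apart. MSK1 fell by 0.36 ± 0.14 (adjusted p = 0.03775) and MSM1 by 0.30 ± 0.12 (adjusted p = 0.03954). MSE1, the mitochondrial glutamyl-tRNA synthetase gene, was at 13.5 and 12.3 and then at 17.0 and 17.0, a rise of 0.39 ± 0.12 (adjusted p = 0.007614). NAM2 alone kept its call in each fit with 1 library left out: without replicate 2 of WT at 1 h, only 1 mitochondrial call was made, and the changes of MSK1, MSM1 and MSE1 were -0.34, -0.22 and 0.33. Without replicate 2 of WT at 3 h MSK1 and MSM1 were at -0.19 each, and without replicate 1 of WT at 1 h MSK1 was at -0.38, none of them called.

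**Figure D2:**
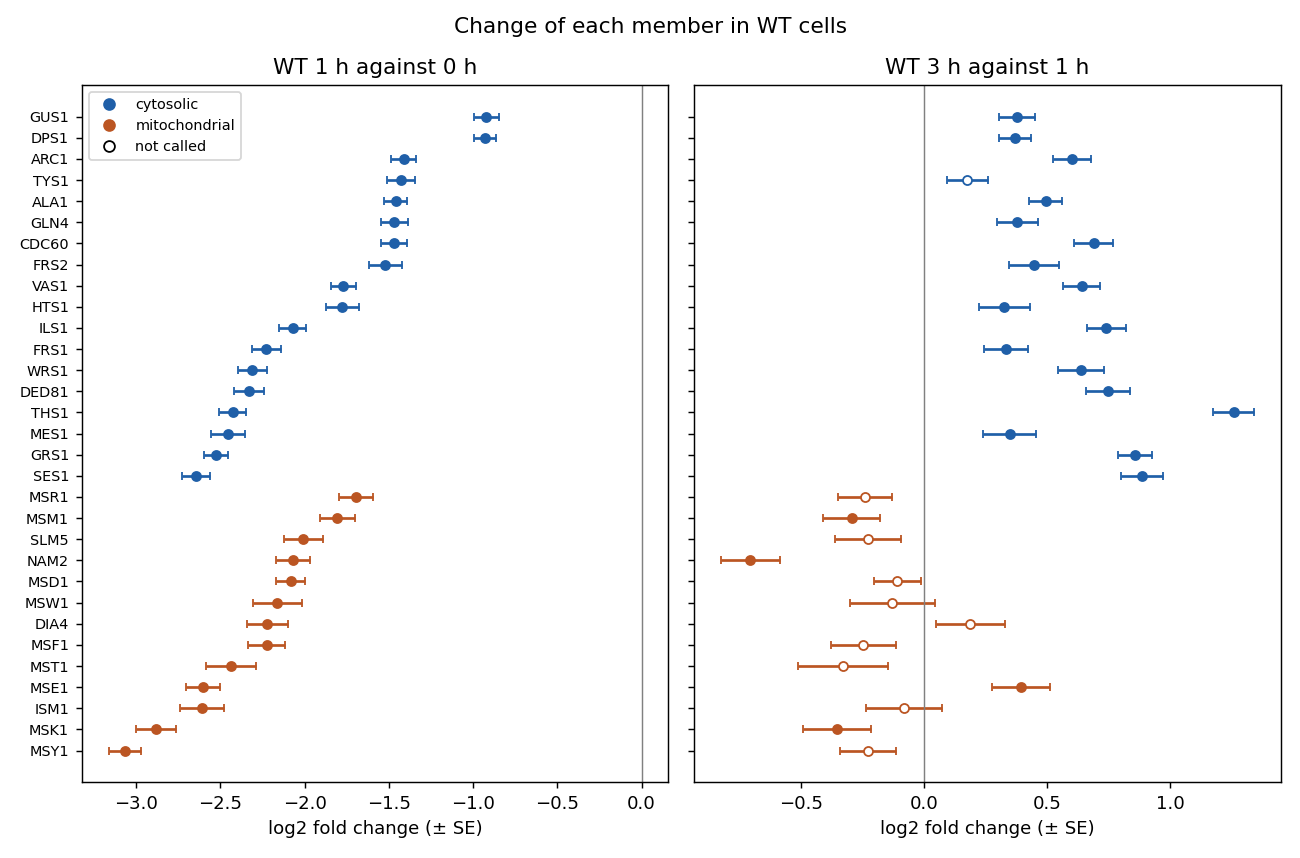
Log2 fold change (± SE) of each tested member in WT at 1 h against 0 h (left) and at 3 h against 1 h (right), blue for cytosolic and orange for mitochondrial genes, open symbols for members not called. All 31 points lie below 0 on the left, from -3.07 (MSY1) to -0.92 (GUS1), and on the right the 18 cytosolic points lie above 0 and 11 of 13 mitochondrial points below it.

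At 3 h all 31 tested members were still lower than at 0 h in WT, where 34.0% of all genes were. The medians were -1.21 for the cytosolic and -2.29 for the mitochondrial set. MES1, the cytosolic methionyl-tRNA synthetase gene, had the lowest cytosolic value (-2.11 ± 0.10, adjusted p = 3.633e-16), followed by FRS1 (-1.90 ± 0.08, adjusted p = 1.003e-16), and GUS1 (-0.54 ± 0.07, adjusted p = 2.394e-07) and DPS1 (-0.56 ± 0.07, adjusted p = 2.123e-08) had the highest. In the mitochondrial set the range ran from MSY1 (-3.30 ± 0.10, adjusted p = 3.624e-20) and MSK1 (-3.24 ± 0.12, adjusted p = 4.366e-18) to DIA4, a likely seryl-tRNA synthetase gene (-2.03 ± 0.12, adjusted p = 5.757e-14), and MSR1 (-1.94 ± 0.10, adjusted p = 3.457e-15).

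Within the cytosolic set, the 11 tested members with AAAATTTT in the window had a median change of -2.23 from 0 h to 1 h, between -2.64 and -1.41, and the 7 without it a median of -1.47, between -2.45 and -0.92. From 1 h to 3 h the medians were 0.64 and 0.38. The ranges overlap, and no test was made of this split. The 4 genes that serve both compartments moved with the other cytosolic genes, with medians of -1.77 and 0.57 for the 2 steps against -1.80 and 0.52 for the other 14.

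For 11 amino acids both compartments have an enzyme gene of their own that was tested, and the log2 ratio of the 2 levels within a library does not depend on how libraries are scaled. In WT the median ratio was 1.25 and 1.23 in the 2 libraries of 0 h, 1.80 and 1.91 at 1 h and 2.81 and 2.73 at 3 h. The step from 0 h to 1 h was mixed, with the ratio up in 7 pairs and down in 4, from -0.65 for methionine (MES1/MSM1) to 1.69 for glutamate (GUS1/MSE1). The step from 1 h to 3 h was up in 10 of 11 pairs, by a median of 0.71 and by up to 1.59 for threonine (THS1/MST1). The glutamate pair was the exception at -0.02. In the mutants the same step was up in 11 of 11 pairs, by medians of 0.63 in rph1Δ, 0.67 in set2Δ and 0.76 in H3K36A. How often the ratio of other pairs of genes rose in this step was not measured.

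**Figure D3:**
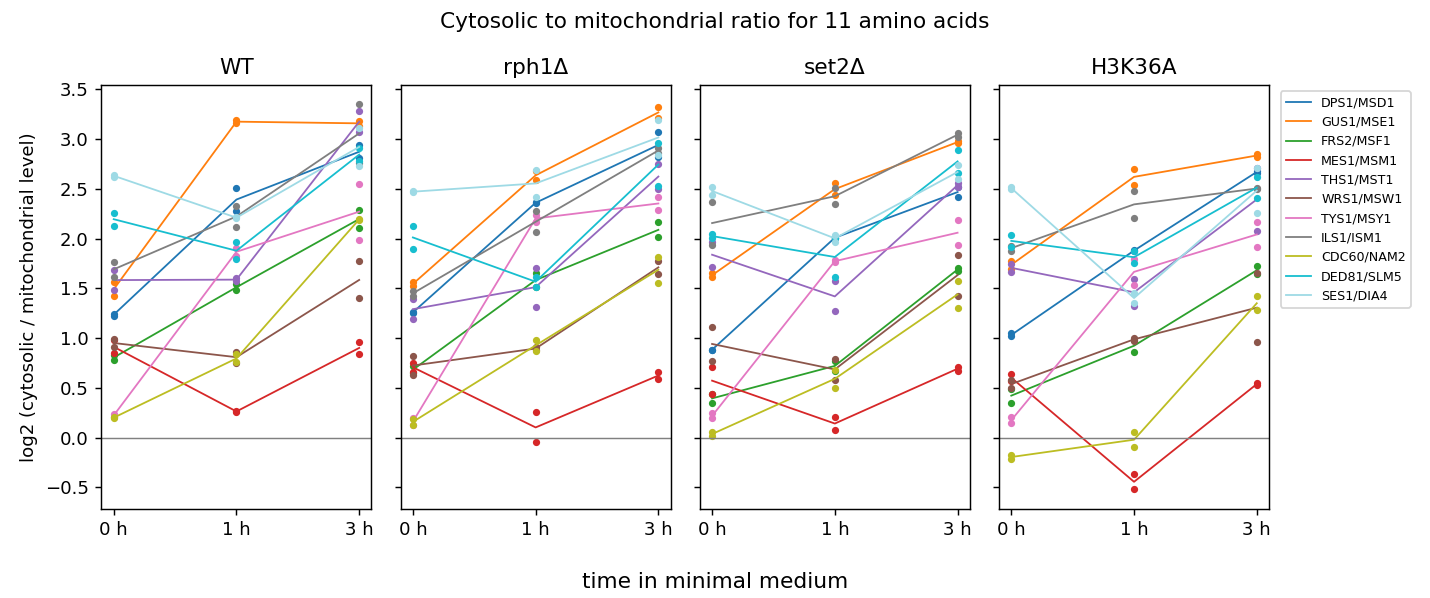
Log2 ratio of the cytosolic to the mitochondrial level for 11 amino acids at 0 h, 1 h and 3 h in each genotype; dots are single libraries and lines join group means. In WT the median of the library medians goes from 1.24 at 0 h to 1.85 at 1 h and 2.77 at 3 h, and at 3 h in H3K36A it is 2.17.

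Other genes of tRNA charging and its surroundings were described from lists chosen by function, with TMM scaling only. Over all genes tested in WT, 34.8% fell and 37.3% rose from 0 h to 1 h, and 27.4% rose and 18.7% fell from 1 h to 3 h. Of the cytosolic charging genes outside the set, YDR341C, YHR020W and YNL247W (arginyl, prolyl and cysteinyl) fell from 0 h to 1 h in WT, YHR020W most at -3.20, while GRS2, the paralog of GRS1, rose by 0.68. All but GRS2 rose from 1 h to 3 h. Of 5 other mitochondrial charging genes, 4 fell in the earlier step, down to -2.28 for AIM10 (prolyl), and GTF1, a subunit gene of the mitochondrial glutamyl-tRNA amidotransferase, rose by 1.10, while PET112 and HER2, which encode the other subunits, changed by -0.72 and -1.36. From 1 h to 3 h edgeR called 0 of these 5, with PET112 and HER2 under an unadjusted p of 0.05.

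The elongation and release factor genes of both compartments fell and then had members that rose. In the cytosol 10 of 11 fell in the earlier step, down to -6.89 for YEF3, a fungal elongation factor gene with a close paralog whose reads its count could share, and 10 of 11 rose later. In mitochondria 7 of 7 fell, down to -4.37 for MEF1, an elongation factor gene, and 3 of 7 rose and 0 fell later, with a median change of 0.20 beside 1.20 for the cytosolic factors, so the mitochondrial factors did not have the negative median of the mitochondrial synthetases (-0.23). None of these differences between lists was tested. The counts of all lists stand beside shares of all genes of 34.8% lower and 37.3% higher in the earlier step. In the later step 27.4% of all genes were higher and 18.7% lower. Of 21 tRNA maturation and export genes 15 fell and 2 rose, then 12 rose. Of 18 genes for RNA polymerase III and its factors 11 fell and 6 rose, then 9 rose and 1 fell. Of 6 general control genes 5 fell and 1 rose, then 3 rose and 1 fell. GCN4 itself, whose protein level is known to be set largely by translation, fell by 0.64 and then rose by 0.66, and at 3 h its change against 0 h was 0.02 (adjusted p = 0.887).

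In the mutants too the members first fell. Most cytosolic members then rose, while the mitochondrial medians lay closer to 0 than in WT. From 0 h to 1 h all 18 tested cytosolic and all 13 mitochondrial members fell in each mutant, where 34.3% of all genes fell in rph1Δ, 34.9% in set2Δ and 36.3% in H3K36A. The cytosolic medians were -1.77 in rph1Δ, -1.78 in set2Δ and -1.94 in H3K36A, and the mitochondrial medians -2.41, -1.90 and -1.98. MSY1 had the lowest mitochondrial value in all 3, at -3.48 ± 0.10 in rph1Δ, -3.12 ± 0.09 in set2Δ and -3.20 ± 0.10 in H3K36A (adjusted p = 3.408e-21, 2.249e-20 and 1.351e-20). Among cytosolic genes SES1 was lowest in rph1Δ (-2.76 ± 0.08, adjusted p = 2.058e-20) and set2Δ (-2.57 ± 0.08, adjusted p = 8.926e-20), and FRS1 in H3K36A (-2.81 ± 0.09, adjusted p = 4.75e-20). DPS1 was highest in rph1Δ (-1.10 ± 0.07, adjusted p = 2.798e-14) and set2Δ (-0.78 ± 0.06, adjusted p = 4.106e-11), and ALA1 in H3K36A (-0.65 ± 0.06, adjusted p = 1.009e-09).

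From 1 h to 3 h, 18 of 18 cytosolic members rose in rph1Δ and in set2Δ and 16 of 18 in H3K36A, where 25.1%, 27.0% and 27.2% of all genes rose. THS1 led in each, at 1.15 ± 0.08, 0.98 ± 0.08 and 1.05 ± 0.08 (adjusted p = 6.784e-12, 1.027e-10 and 3.554e-11). The cytosolic rises numbered 11, 10 and 15 with library totals. Of the mitochondrial members, rph1Δ had 1 higher (DIA4, 0.50 ± 0.15, adjusted p = 0.007866) and 2 lower (SLM5, asparaginyl, and NAM2), where 16.3% of all genes fell. The set2Δ cells had 4 lower (MSK1, MSF1, SLM5 and NAM2, from -0.49 to -0.34), where 19.4% fell, and H3K36A had 2 lower (NAM2 at -0.67 and MSK1 at -0.43), where 21.7% fell. The mitochondrial splits became 0 higher and 8 lower, 0 and 10, and 0 and 8 with that scaling. With TMM scaling the mitochondrial medians were -0.08 in rph1Δ, -0.14 in set2Δ and -0.11 in H3K36A, beside -0.23 in WT. Below the median of all genes lay 10, 10 and 8 of the 13 mitochondrial members in the 3 mutants. In rph1Δ edgeR called 0 mitochondrial members without replicate 1 at 1 h and 1 without replicate 2 at 3 h. In set2Δ it called 2 without replicate 1 at 1 h or either replicate at 3 h. None of the 4 set2Δ calls was kept without each library: NAM2 was at -0.14 without replicate 1 at 3 h and -0.29 without replicate 1 at 1 h, SLM5 at -0.16 without replicate 2 at 1 h and -0.29 without replicate 2 at 3 h, MSF1 at -0.28 without replicate 1 at 1 h and -0.31 without replicate 2 at 3 h, and MSK1 at -0.33 without replicate 1 at 3 h. In rph1Δ DIA4 was at 0.37, NAM2 at -0.25 and SLM5 at -0.31 without replicate 1 at 1 h, none of them called. In H3K36A mitochondrial calls went in both directions, higher and lower, without replicate 2 at 3 h. The MSK1 change in H3K36A was -0.15, not called, without replicate 1 at 3 h.

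Against WT at the same time, rph1Δ had the fewest members called. At 0 h edgeR called 0 of 31 members, also at an unadjusted p under 0.05 and with DESeq2, where 4.83% of all genes were called. At 1 h, 3 cytosolic and 2 mitochondrial members were lower, where 9.27% of all genes were. DIA4 was at 17.8 and 16.3 in WT and at 10.7 and 12.7 in rph1Δ (-0.54 ± 0.15, adjusted p = 0.01127), and the libraries did not overlap. FRS1 was lower by 0.39 ± 0.09 (adjusted p = 0.003805), GUS1 by 0.31 ± 0.07 (adjusted p = 0.004312) and MSY1 by 0.32 ± 0.11 (adjusted p = 0.04585). GRS1 had the smallest called difference, at 73.6 and 72.4 in WT and 61.5 and 60.9 in rph1Δ (-0.25 ± 0.07, adjusted p = 0.01471). Without replicate 1 of WT at 1 h none of the 5 was called (0 cytosolic, 0 mitochondrial), the changes of DIA4, FRS1, GUS1, GRS1 and MSY1 then being -0.48, -0.33, -0.27, -0.24 and -0.21. Without replicate 1 of rph1Δ at 1 h 1 cytosolic and 0 mitochondrial members were called, and without replicate 2 there was 1 mitochondrial call.

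At 3 h, rph1Δ had 2 cytosolic members lower, where 16.4% of all genes were lower, and 1 mitochondrial member higher, where 11.6% were higher. The 2 WT libraries of 3 h, used in every 3 h comparison with WT, differed more than the WT libraries of 0 h or 1 h. Over genes, their chi-square per degree of freedom was 12.8, against 3.17 at 0 h and 3.04 at 1 h. It was 14.9 for the set2Δ libraries of 0 h and 9.77 for the H3K36A libraries of 0 h. Those libraries enter the 0 h comparisons and the interaction tests of these mutants. The remaining groups lay between 2.72 and 6.78. NAM2 was at 12.6 and 11.1 in WT and at 15.2 and 17.4 in rph1Δ (0.45 ± 0.12, adjusted p = 0.008475). THS1 was at 125 and 116 and at 108 and 95.1 (-0.25 ± 0.08, adjusted p = 0.02022), and GRS1 was lower by 0.21 ± 0.07 (adjusted p = 0.02688). All 3 sets of libraries were apart, but without replicate 2 of rph1Δ at 3 h the values were 0.36, -0.17 and -0.24 and none was called. Without replicate 2 of WT at 3 h there were 1 cytosolic call and 0 mitochondrial calls, without replicate 1 of rph1Δ 1 cytosolic call, and without replicate 1 of WT 2 mitochondrial calls. With library totals the cytosolic split at 3 h was 2 higher and 0 lower, with neither THS1 nor GRS1 called, and at 1 h it was 1 higher and 2 lower, with 2 higher and 1 lower in the mitochondrial set.

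In set2Δ 6 of 13 mitochondrial members were higher than in WT at each time after the move. At 0 h, 3 members were called, where 13.3% of all genes were higher and 8.73% lower. FRS2, the other subunit gene of the cytosolic phenylalanyl-tRNA synthetase, was at 174 and 175 in WT and at 143 and 127 in set2Δ (-0.37 ± 0.09, adjusted p = 0.00549). MSD1 (mitochondrial aspartyl) was at 119 and 120 and at 141 and 141 (0.24 ± 0.08, adjusted p = 0.02647), and ISM1 was lower by 0.36 ± 0.11 (adjusted p = 0.02049). FRS2 and ISM1 lost their calls at -0.28 and -0.15 without replicate 2 and replicate 1 of set2Δ at 0 h, and 0 mitochondrial members were called without replicate 1 of set2Δ or replicate 2 of WT and 1 without replicate 1 of WT. MSD1 was not called with median-of-ratios scaling or DESeq2 (0.21 in each).

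At 1 h in set2Δ, 6 of 13 mitochondrial members were higher, where 20.4% of all genes were, and edgeR called 0 lower, also at an unadjusted p under 0.05 and with DESeq2. MSE1 was highest (0.58 ± 0.11, adjusted p = 9.111e-05), then ISM1 (0.52 ± 0.14, adjusted p = 0.003319), and NAM2 (0.34 ± 0.11, adjusted p = 0.008924) and SLM5 (0.31 ± 0.12, adjusted p = 0.03903) were the lowest of the 6. In the cytosolic set 4 were higher and 2 lower, where 27.3% of all genes were lower. ILS1, the cytosolic isoleucyl-tRNA synthetase gene, was at 44.1 and 39.9 in WT and at 69.7 and 68.3 in set2Δ (0.71 ± 0.08, adjusted p = 3.296e-08). FRS2 was at 59.7 and 62.0 in WT and at 41.6 and 39.7 in set2Δ (-0.58 ± 0.10, adjusted p = 5.124e-05). ALA1 was higher by 0.54 ± 0.07 (adjusted p = 2.687e-07) and ARC1, whose protein binds the methionyl and glutamyl enzymes, lower by 0.50 ± 0.08 (adjusted p = 9.163e-06). ALA1 and ILS1 overlap YOR335W-A and YBL077W on the opposite strand, and the sources used here do not give whether reads were counted by strand. With library totals the median of all genes moved from -0.05 to 0.16 and the splits were 11 higher and 2 lower in the cytosolic set and 11 and 0 in the mitochondrial set. SLM5 was not called, at 0.12, without replicate 2 of set2Δ at 1 h, nor NAM2, at 0.32, without replicate 2 of WT at 1 h.

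At 3 h in set2Δ, 6 mitochondrial members were again higher, where 20.6% of all genes were, and 0 were lower by edgeR, by DESeq2 or at an unadjusted p under 0.05. NAM2 was at 12.6 and 11.1 in WT and at 16.7 and 22.3 in set2Δ (0.71 ± 0.12, adjusted p = 2.676e-05), the set2Δ libraries being both above WT but unequal. MSM1 was close at 0.70 ± 0.11 (adjusted p = 1.689e-05), and MSD1 (0.39 ± 0.09, adjusted p = 0.001478) and MSY1 (0.29 ± 0.11, adjusted p = 0.03587) were the lowest called. In the cytosolic set 4 were higher, led by MES1 (0.49 ± 0.10, adjusted p = 0.0003812) and ILS1 (0.42 ± 0.08, adjusted p = 7.819e-05), and 2 were lower, where 27.8% of all genes were. FRS2 was at 93.6 and 72.4 in WT and at 64.5 and 59.0 in set2Δ (-0.43 ± 0.10, adjusted p = 0.001273), and ARC1 was lower by 0.28 ± 0.08 (adjusted p = 0.003544). MES1 overlaps YGR265W on the opposite strand. Without replicate 1 of WT or replicate 1 of set2Δ at 3 h the mitochondrial count was 3, and without the WT library FRS2 was at -0.23 and MSY1 at 0.14, neither called. ARC1 was at -0.22 without the set2Δ library and at -0.04 with library totals, and was not called in either. With library totals the splits were 11 higher and 0 lower, and 12 and 0.

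In H3K36A some mitochondrial members were higher than in WT, and cytosolic members were called on both sides. At 0 h, NAM2 was at 79.5 and 83.2 in WT and at 102 and 98.6 in H3K36A (0.30 ± 0.09, adjusted p = 0.01651), where 13.4% of all genes were higher. FRS2 was at 174 and 175 and at 139 and 139 (-0.33 ± 0.09, adjusted p = 0.0104) and WRS1 (cytosolic tryptophanyl) was lower by 0.31 ± 0.08 (adjusted p = 0.004134), where 11.1% of all genes were lower. FRS2 kept its value, between -0.34 and -0.32, but not its call with any of the 4 libraries left out, WRS1 was not called at -0.26 without replicate 2 of H3K36A at 0 h, and NAM2 was not called at 0.27 without replicate 1 of WT at 0 h or at 0.28 without replicate 1 of H3K36A. With median-of-ratios scaling the mitochondrial split at 0 h was 1 higher and 2 lower, and with DESeq2 1 and 1.

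At 1 h in H3K36A, 6 mitochondrial members were higher, where 20% of all genes (1299 of 6503) were, and 0 lower by edgeR, by DESeq2 or at an unadjusted p under 0.05. They were NAM2 (0.58 ± 0.11, adjusted p = 5.632e-05), MSM1 (0.47 ± 0.11, adjusted p = 0.0007262), DIA4, MSD1, MSE1 (0.40 ± 0.11, adjusted p = 0.005272) and ISM1 (0.35 ± 0.14, adjusted p = 0.04412). Of the cytosolic members 2 were higher and 8 lower, where 26.7% of all genes were lower. ALA1 was at 57.0 and 55.1 in WT and at 90.5 and 95.5 in H3K36A (0.73 ± 0.07, adjusted p = 1.351e-09), and ILS1 was higher by 0.47 ± 0.08 (adjusted p = 2.13e-05). FRS2 was at 59.7 and 62.0 in WT and at 39.4 and 34.6 in H3K36A (-0.72 ± 0.11, adjusted p = 4.069e-06), and FRS1, the gene of its partner subunit, was lower by 0.69 ± 0.09 (adjusted p = 8.015e-07). The other 6 lower members were ARC1, SES1, VAS1, HTS1, TYS1 and CDC60, from -0.43 to -0.23. Scaled by library totals, the cytosolic split was 4 higher and 3 lower and the mitochondrial split 8 and 0. With median-of-ratios scaling and with DESeq2 the cytosolic split was 2 and 5 and the mitochondrial split 6 and 0. Without replicate 2 of WT at 1 h MSE1 was at 0.34 and ISM1 at 0.39. Without replicate 2 of H3K36A at 1 h MSE1 was at 0.31 and ISM1 at 0.26, and without replicate 1 of WT at 1 h ISM1 was at 0.32. None of these was called.

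At 3 h in H3K36A, 5 mitochondrial members were higher, where 18.7% of all genes were, and 0 lower by edgeR, by DESeq2 or at an unadjusted p under 0.05. ISM1 was at 7.40 and 9.55 in WT and at 14.1 and 14.0 in H3K36A (0.73 ± 0.15, adjusted p = 0.0002543). MST1 (mitochondrial threonyl) followed at 0.63 ± 0.18 (adjusted p = 0.005395), and MSM1 (0.52 ± 0.11, adjusted p = 0.0006845) and MSD1 (0.36 ± 0.09, adjusted p = 0.003007) were the lowest of the 5. In the cytosolic set ALA1 (0.36 ± 0.07, adjusted p = 9.494e-05) and DPS1 (0.16 ± 0.07, adjusted p = 0.04876) were higher and 7 were lower, where 27.6% of all genes were. SES1 was at 144 and 147 in WT and at 121 and 105 in H3K36A (-0.36 ± 0.08, adjusted p = 0.0009073), and FRS2 was lower by 0.36 ± 0.10 (adjusted p = 0.005566). The cytosolic direction depended on the scaling. With library totals, under which the median of all genes moved from -0.06 to 0.16, the split was 5 higher and 0 lower, with CDC60, GRS1 and THS1 on the other side of 0, and with median-of-ratios scaling and with DESeq2 it was 3 and 4. All mitochondrial calls were higher under each of these. DPS1 was not called without the filter on low values (0.16), without either replicate of H3K36A (0.15 and 0.16) or without replicate 2 of WT (0.11). Without either replicate of H3K36A at 3 h 4 cytosolic members were called. The MST1 change was 0.28 without replicate 1 of H3K36A, FRS2 was at -0.16 without replicate 1 of WT and MSD1 at 0.25 without replicate 2 of WT, none of them called.

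**Figure D4:**
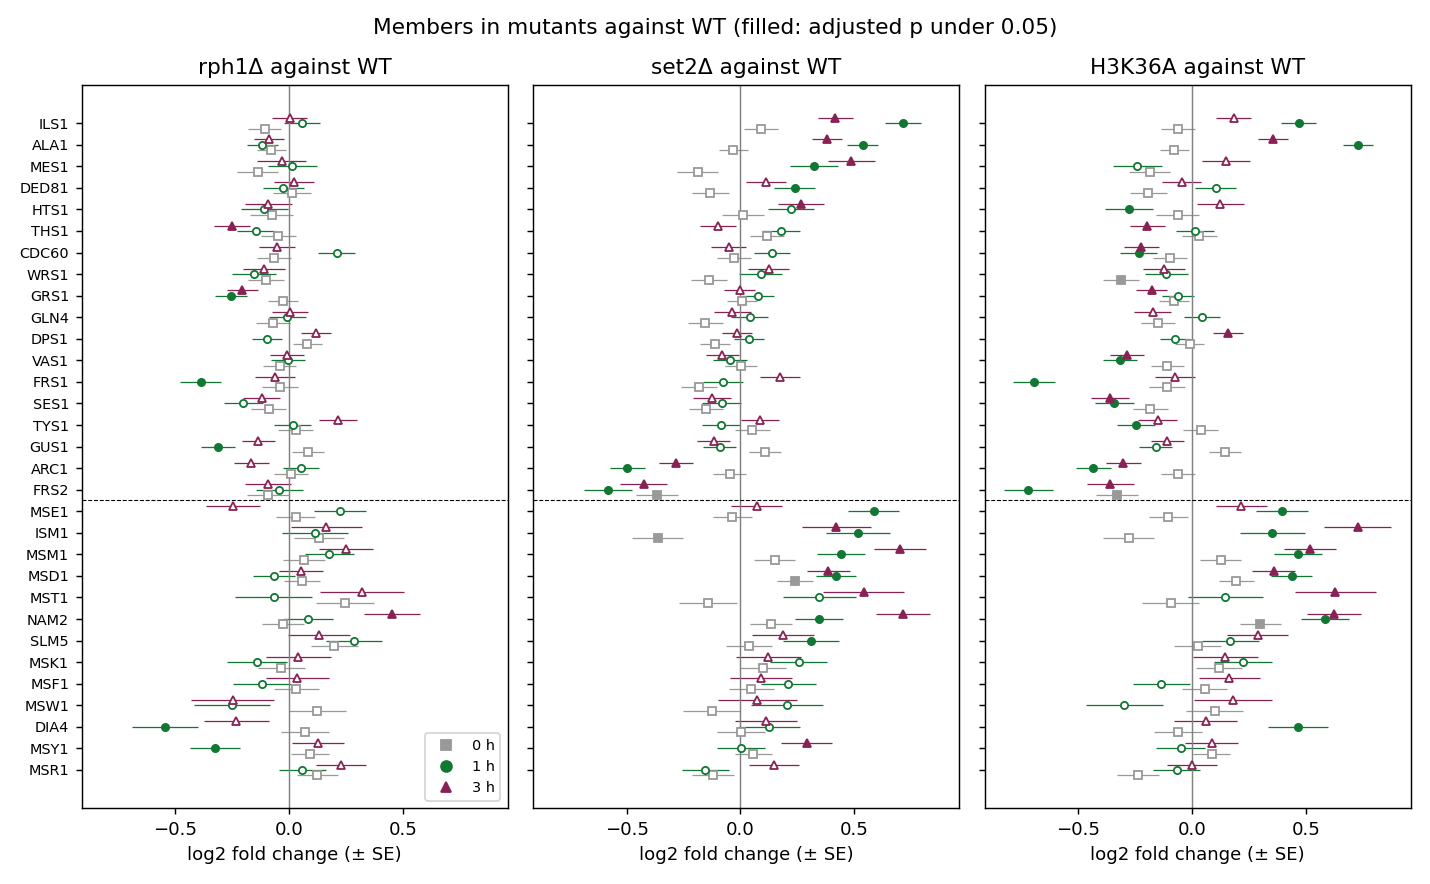
Log2 fold change (± SE) of each tested member in rph1Δ, set2Δ and H3K36A against WT at 0 h (squares), 1 h (circles) and 3 h (triangles), with cytosolic genes above the dashed line and filled symbols for adjusted p under 0.05. The filled mitochondrial symbols of set2Δ and H3K36A at 1 h and 3 h all lie above 0, up to 0.73 (ISM1 in H3K36A at 3 h), and FRS2 lies below 0 at each time in both.

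The set2Δ and H3K36A comparisons share the WT libraries, so their values stand side by side without a count of shared calls. FRS2 was at -0.37, -0.58 and -0.43 at 0 h, 1 h and 3 h in set2Δ and at -0.33, -0.72 and -0.36 in H3K36A. The ratios within libraries, which do not depend on the scaling, were mostly lower than in WT. At 3 h the median ratio over the 11 pairs was 2.42 and 2.52 in the set2Δ libraries and 2.08 and 2.26 in the H3K36A libraries, below the 2.81 and 2.73 of WT, while the 2.50 and 2.75 of rph1Δ overlapped it. Pair by pair, H3K36A was lower than WT in 11 of 11 pairs at 3 h (median difference -0.36) and in 9 of 11 at 1 h (-0.51). The set2Δ cells were lower in 10 of 11 pairs at each of these times (-0.21 and -0.17) and rph1Δ in 6 of 11 (-0.10 and -0.03). At 0 h, before the move, 8 of 11 pairs were already lower in set2Δ and in H3K36A and 9 of 11 in rph1Δ, with medians of -0.15, -0.20 and -0.16. The leucine pair (CDC60/NAM2) was lowest in set2Δ at 3 h (-0.75) and in H3K36A at 1 h and 3 h (-0.82 and -0.84).

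Whether the response to the move itself differed from that of WT was tested with the interaction of genotype and time. In set2Δ, the change from 0 h to 1 h differed for 5 of 18 cytosolic and 2 of 13 mitochondrial members, where 28.1% of all genes differed, and the change from 0 h to 3 h for 4 and 4, where 32.6% did. ISM1 had the largest value at both times. It went from 50.9 and 58.8 at 0 h to 8.78 and 9.19 at 1 h and 7.40 and 9.55 at 3 h in WT, and from 36.3 and 48.9 to 13.7 and 12 at 1 h and 11.4 and 11.3 at 3 h in set2Δ. Lower than WT before the move and higher after it, ISM1 fell less in set2Δ by 0.88 ± 0.18 at 1 h and 0.79 ± 0.19 at 3 h (adjusted p = 0.0004617 and 0.002146). The cytosolic split at 1 h, 4 above and 1 below WT, was 10 and 0 with library totals. Without replicate 1 of WT at 1 h the cytosolic count at 1 h was 3. The cytosolic count at 3 h was 2 without replicate 2 of WT at 0 h or at 3 h and 7 without replicate 2 of set2Δ at 0 h.

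In H3K36A the change differed for 6 cytosolic and 3 mitochondrial members at 1 h, where 27.9% of all genes differed, and for 1 and 3 at 3 h, where 27.2% did. ALA1 had the largest value at 1 h. It went from 154 and 154 to 57.0 and 55.1 in WT and from 143 and 150 to 90.5 and 95.5 in H3K36A, a smaller fall by 0.81 ± 0.09 (adjusted p = 1.71e-07). ISM1 had the largest value at 3 h, at 45.9 and 44.4 and then 14.1 and 14.0 in H3K36A, a smaller fall than in WT by 1.01 ± 0.18 (adjusted p = 0.0002181). FRS1 fell more in H3K36A at 1 h (-0.58 ± 0.12, adjusted p = 0.0006161). The cytosolic split at 1 h, 2 above and 4 below WT, became 4 and 1 with library totals and 3 and 1 with median-of-ratios scaling or DESeq2. Without replicate 2 of H3K36A at 1 h the counts at 1 h were 3 cytosolic and 1 mitochondrial, and without replicate 2 of WT at 1 h 1 mitochondrial member was called. At 3 h the cytosolic count was 3 without replicate 1 of WT and 2 without replicate 2 of H3K36A, and the mitochondrial count was 1 without replicate 1 of H3K36A.

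In rph1Δ the change to 1 h differed for GUS1 (-0.40 ± 0.10, adjusted p = 0.01407) and DIA4 (-0.61 ± 0.18, adjusted p = 0.03195), where 8.52% of all genes differed. DIA4 went from 82.4 and 76.6 to 17.8 and 16.3 in WT and from 85.0 and 82.0 to 10.7 and 12.7 in rph1Δ. Without replicate 1 of WT at 1 h neither was called, at -0.35 and -0.55, nor was either without replicate 2 of WT at 0 h (-0.38 and -0.56), replicate 1 of rph1Δ at 0 h (-0.38 and -0.59) or replicate 1 of rph1Δ at 1 h (-0.38 and -0.49), and DIA4 was not called without replicate 2 of rph1Δ at 0 h (-0.64) or of WT at 1 h (-0.67). For the change to 3 h edgeR called 0 members, with 1 cytosolic and 1 mitochondrial member at an unadjusted p under 0.05 and 1 mitochondrial member called by DESeq2, where 6.77% of all genes were called.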

How the data were processed

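Messenger RNA was profiled in 24 libraries of 4 genotypes at 3 times. Groups came from the sample labels, and columns were joined by sample title. Raw counts per gene were deposited beside FPKM that the authors derived from them, per the file headers. Values recomputed from counts, exonic length and totals equalled the deposited FPKM in 100% of entries, within 0.0051. Tools named in the submitters' processing notes are HTSeq 0.6.1, HISAT2 2.0.1 and cutadapt 1.9.1, with build sacCer3. The sources used here do not give strandedness or how reads shared by similar genes were treated. The coordinates of all 32 members were identical in the reference annotation (RefSeq, R64).

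Counts were tested with edgeR 4.0.16 in R 4.3.3 by its quasi-likelihood test (DESeq2 1.42.0 as an alternative) with TMM scaling (factors 0.823 to 1.191) in 1 fit of all 12 groups (12 residual degrees of freedom, common biological coefficient of variation 6.73%). The 6503 genes that reached an FPKM of 1 in 2 or more libraries entered the tests and 623 did not. Calls were made under an adjusted p of 0.05 (Benjamini-Hochberg, within each of 24 comparisons), and the SE is the log2 fold change divided by the square root of F. The code was tested on simulated data. In each comparison the 2 highest and 2 lowest called members of each compartment qualified to be named with their statistics, and library values are given for the extremes. Further members are named to complete a count and were chosen after their values were seen. The members and lists were chosen with earlier results of these data known. Alternatives were library totals, median-of-ratios size factors, DESeq2, no filter, the replicate number as a term, and each library left out, which leaves 1 library in a group that is then assumed to vary like the others. Windows around start codons were read from the reference genome.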

Additional observations from a re-analysis of the deposited data

Results flagged for a closer look

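The members below had a change from 0 h in a mutant that differed from the change in WT by the edgeR interaction test. In each comparison they are at most the 2 highest and 2 lowest called members of each compartment. Each value is the log2 change in the mutant less that in WT. Negative values mean a larger fall in the mutant, since these members were below their 0 h levels in every genotype. For rph1Δ at 1 h these were GUS1 (-0.40) and DIA4 (-0.61). For set2Δ at 1 h they were ARC1 (-0.45), DED81 (0.37), ALA1 (0.57), ILS1 (0.62), MSE1 (0.62) and ISM1 (0.88). For set2Δ at 3 h they were ILS1 (0.33), FRS1 (0.36), ALA1 (0.41), MES1 (0.67), MSM1 (0.55), NAM2 (0.58), MST1 (0.68) and ISM1 (0.79). For H3K36A at 1 h they were FRS1 (-0.58), FRS2 (-0.39), ILS1 (0.53), ALA1 (0.81), MSE1 (0.50), DIA4 (0.52) and ISM1 (0.63). For H3K36A at 3 h they were ALA1 (0.43), MSM1 (0.39), MST1 (0.72) and ISM1 (1.01). The mutants share the WT libraries in these tests. Over all genes the test called 8.52% for rph1Δ, 28.1% for set2Δ and 27.9% for H3K36A at 1 h. At 3 h it called 32.6% for set2Δ and 27.2% for H3K36A. FRS2 in H3K36A at 1 h was not called with library totals (-0.27), median-of-ratios scaling (-0.30) or DESeq2 (-0.30), and MSM1 in H3K36A at 3 h was not called without the filter on low values (0.39). Several calls were lost with 1 library left out. For set2Δ at 3 h NAM2 was at 0.36 without replicate 2 of set2Δ at 3 h, FRS1 and ILS1 at 0.24 and 0.23 without replicate 2 of WT at 3 h and 0.35 and 0.30 without replicate 2 of WT at 0 h, and FRS1 at 0.32 and ILS1 at 0.31 without replicates 1 and 2 of set2Δ at 3 h. MST1 was there between 0.60 and 0.63 without replicate 2 of WT at 0 h, replicate 1 of WT at 3 h or replicate 1 of set2Δ at 0 h or 3 h. For set2Δ at 1 h DED81 was between 0.34 and 0.35 without replicate 1 of WT at 0 h or 1 h or of set2Δ at 1 h. For H3K36A at 3 h MST1 was at 0.38 without replicate 1 of H3K36A at 3 h and 0.64 without replicate 2 of WT at 0 h, and MSM1 at 0.27 without replicate 1 of H3K36A at 3 h, 0.30 without replicate 2 of H3K36A at 0 h, 0.33 without replicate 1 of WT at 0 h and 0.32 without replicate 2 of WT at 3 h. For H3K36A at 1 h of the 8 fits that left out 1 of its libraries FRS2 was called only in the one without replicate 1 of H3K36A at 1 h, and was between -0.42 and -0.30 in the others. DIA4 was between 0.46 and 0.49 without replicate 2 of H3K36A at 0 h, replicate 1 of H3K36A at 1 h, replicate 1 of WT at 0 h or replicate 2 of WT at 1 h. ISM1 was at 0.54 and MSE1 at 0.42 without replicate 2 of H3K36A at 1 h, ISM1 at 0.52 without replicate 2 of WT at 0 h and MSE1 at 0.44 without replicate 2 of WT at 1 h.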

How the results depend on the processing

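The falls from 0 h in each genotype kept all 18 cytosolic and 13 mitochondrial calls under every alternative run. The 142 changes that qualified to be named are not all given above. None of the 142 turned its sign, and 54 lost their call without at least 1 library. With library totals 3 of 335 member calls did turn their sign (CDC60, GRS1 and THS1 in H3K36A at 3 h). The replicate numbers share no source in the labels, and same-numbered libraries did not deviate together: over 66 pairs of groups the correlation was -0.26 to 0.17, with a median of 0.00. With the replicate number as a block, 332 of 335 member calls held, and the rph1Δ mitochondrial count at 1 h was 1 against 2.

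With library totals, the counts from 1 h to 3 h (cytosolic, then mitochondrial) became 10 and 11 in WT, 11 and 8 in rph1Δ, 10 and 10 in set2Δ, and 8 for mitochondrial members in H3K36A. Against WT they became 3 for mitochondrial members in rph1Δ at 3 h, 13 and 11 in set2Δ at 1 h, 11 and 12 in set2Δ at 3 h, 2 for mitochondrial members in H3K36A at 0 h, and 5 and 10 in H3K36A at 3 h. Interaction counts became 1 (mitochondrial) in rph1Δ at 3 h, 10 and 7 in set2Δ at 1 h, 9 and 7 in set2Δ at 3 h, 6 (mitochondrial) in H3K36A at 1 h and 6 and 5 at 3 h. Median-of-ratios scaling and DESeq2 gave mitochondrial counts of 4 and 4 for H3K36A from 1 h to 3 h, 1 and 1 for set2Δ at 0 h, 3 and 2 for H3K36A at 0 h, and interaction counts of 1 and 1 for rph1Δ at 3 h and 5 and 5 for H3K36A at 1 h, with cytosolic interaction counts of 3 and 4 for H3K36A at 3 h. The cause of these moves was not tested.

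Leaving out each library gave ranges, for mitochondrial calls from 1 h to 3 h, of 1 to 4 in WT, 0 to 3 in rph1Δ, 2 to 3 in set2Δ and 2 to 4 in H3K36A. Against WT the cytosolic and mitochondrial ranges were 0 to 2 and 0 to 2 in rph1Δ at 1 h and again at 3 h. The mitochondrial range was 0 to 2 in set2Δ at 0 h and 3 to 6 at 3 h. In H3K36A they were 0 to 1 and 0 to 1 at 0 h, with 3 to 6 mitochondrial at 1 h and 4 to 7 cytosolic at 3 h. For interactions the ranges were 0 to 1 in rph1Δ for each compartment at 1 h and for mitochondrial members at 3 h. They were 3 to 6 and 2 to 7 for cytosolic members in set2Δ at 1 h and 3 h, 3 to 6 and 1 to 4 in H3K36A at 1 h, and 1 to 3 and 1 to 3 at 3 h. The pair ratios held with the deposited FPKM and a pseudocount of 1. Those FPKM derive from the same counts and exonic lengths, and library totals cancel in a ratio within a library. Only the pseudocount differed, so this is no test of the ratios.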

Other observations

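The low counts of KRS1 were shared by some of its neighbours on chromosome IV. Over all 24 libraries EHD3 (YDR036C), which lies before it, held 1 count, ENA5 (YDR038C) held 15, ENA2 (YDR039C) held 0 and ENA1 (YDR040C) held 2411. The genes next to this stretch were counted at ordinary levels, with 24285 counts for ARO3 (YDR035W) and 27021 for RSM10 (YDR041W). The 24 counts of KRS1 were spread as 11 in WT, 0 in rph1Δ, 9 in set2Δ and 4 in H3K36A. No level of the cytosolic lysyl-tRNA synthetase transcript is therefore given here.

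Across the 31 tested members, gene length and the log2 difference of set2Δ from WT at 1 h had a Spearman correlation of 0.30, beside 0.20 across all 6503 genes tested, and at 3 h one of 0.17 beside 0.37. For H3K36A it was 0.31 beside 0.23 at 1 h and 0.10 beside 0.35 at 3 h, and for rph1Δ 0.28 beside 0.28 and 0.15 beside 0.40. Which of the members and all genes had the higher correlation thus changed between the times. These values are across genes of the same libraries and are a description only.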
